A study of Mus musculus with 7 samples.

Results

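The transcripts described here are those of 8 chemokine genes that T cells can express, Ccl1, Ccl3, Ccl4, Ccl5, Ccl22, Xcl1, Cxcl9 and Cxcl10. They were measured in sorted CD4+ T cells of wild-type and Foxp3-mutant mice on Affymetrix mouse arrays. The members were chosen by name, and their probe sets are those that the array annotation gives to a single member. This rule found 9 probe sets among 45037, with 2 for Cxcl9 and 1 for each other member. The 8 genes stand among 18193 genes named by such probe sets. All 7 arrays came from male mice aged 3 weeks. B6 mice (C57BL/6), the wild type, gave 1 array from the pooled peripheral lymph nodes of 2 mice. Scurfy mice (Sf; B6.Cg-Foxp3sf/J) gave 3 arrays, and their defective gene, Foxp3, encodes the factor on which regulatory T cells depend. The last 3 arrays, called Sf.Il2-/- as in the labels, came from scurfy animals in which the Il2 gene was null as well (B6.129P2-Il2tm1Hor/J). Cells positive for B220, CD8, CD11b, CD11c or NK1.1 had been depleted before the CD3+ CD4+ cells were sorted. Any regulatory CD4+ T cells were thus measured together with conventional ones. Their share was not measured here and could differ between B6 and the Foxp3 mutants. In such bulk samples a change in the number of cells that express a gene and a change in RNA per cell cannot be told apart.

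Chemokines are small secreted proteins that bind G protein-coupled receptors and steer the movement of leukocytes. Ccl3, Ccl4 and Ccl5 attract T cells, monocytes and other cells, and Ccl3 and Ccl5 bind Ccr1. Effector and memory T cells release all 3, and Xcl1, a chemokine of activated T and NK cells, acts on cross-presenting dendritic cells through Xcr1. Ccl1 is the ligand of Ccr8, and Ccl22 that of Ccr4, receptors found on Th2 and regulatory T cells. Cxcl9 and Cxcl10 are induced by interferons and attract cells that carry Cxcr3.

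The values are the authors' intensities, taken as log2(intensity + 1). The array medians were 29.3 to 32.4 in intensity. The upper quartiles were 110 to 116 in Sf 1, Sf 2, Sf.Il2-/- 1 and Sf.Il2-/- 2, and 130 to 145 in B6, Sf 3 and Sf.Il2-/- 3. This divides the arrays into 2 array sets that the labels do not name. Foxp3 was 7.25 in B6, between 5.87 and 6.32 in Sf, and between 4.20 and 4.41 in Sf.Il2-/-. How its probes relate to the mutation is not given in the sources used here. Il2 read 5.22 in B6. Its values were 5.39, 5.09 and 7.35 in Sf 1 to 3 and, for the arrays labelled Sf.Il2-/-, 7.17, 8.20 and 7.74. The Il2 probe set was thus not lower in the arrays labelled null, and since the place of its probes relative to the disrupted part is not given, it tests no label. Sf.Il2-/- below means the arrays so labelled. Genes were tested in 1 limma fit where the highest group mean reached 5 on the log2 scale, and a gene was called at a Benjamini-Hochberg adjusted p under 0.05 over 11460 genes. Of the 8 members 6 passed this filter, while Ccl22 and Xcl1 did not and are described by their values. A member can pass through the group in which it is high. Ccl1, Ccl3, Ccl4 and Cxcl9 read under 5 in B6 and passed only through a mutant group. The B6 comparisons rest on 1 array that is assumed to vary like the mutant arrays, and both share it.

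The chemokines did not move as a block. Ccl1 and Cxcl10 rose in Sf over B6. Ccl1, Ccl4, Ccl5 and Cxcl10 rose in Sf.Il2-/- over B6. Ccl4 rose in Sf.Il2-/- over Sf. In Sf v B6, 2 of 6 tested members rose and 0 fell, where 1.31% of all tested genes rose and 1.16% fell. In Sf.Il2-/- v B6, 4 of 6 rose and 0 fell, where 1.49% of all tested genes rose and 1.2% fell. In Sf.Il2-/- v Sf, 1 of 6 rose and 0 fell, where 0.0436% of all tested genes rose and 0.236% fell. The median difference of the 6 tested members was 1.41, 3.64 and 1.22 (log2) in these comparisons, against -0.25, -0.14 and 0.08 over all tested genes. Quantile normalization moved the all-gene medians of the B6 comparisons to 0.02 and 0.06, and the calls over all genes from 150 higher and 133 lower to 388 and 162 in Sf v B6 and from 171 and 137 to 491 and 243 in Sf.Il2-/- v B6. Relative to the all-gene median the members' medians were 1.65, 3.78 and 1.14. Ccl1, Ccl3, Ccl4 and Cxcl9 passed the filter only through a mutant group, Ccl3 only through Sf.Il2-/- and Cxcl9 only through Sf. This set the sign of some of their differences in advance, and the members were chosen with earlier results of these data known. No excess over all tested genes is concluded from these counts and medians.

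**Figure D1:**
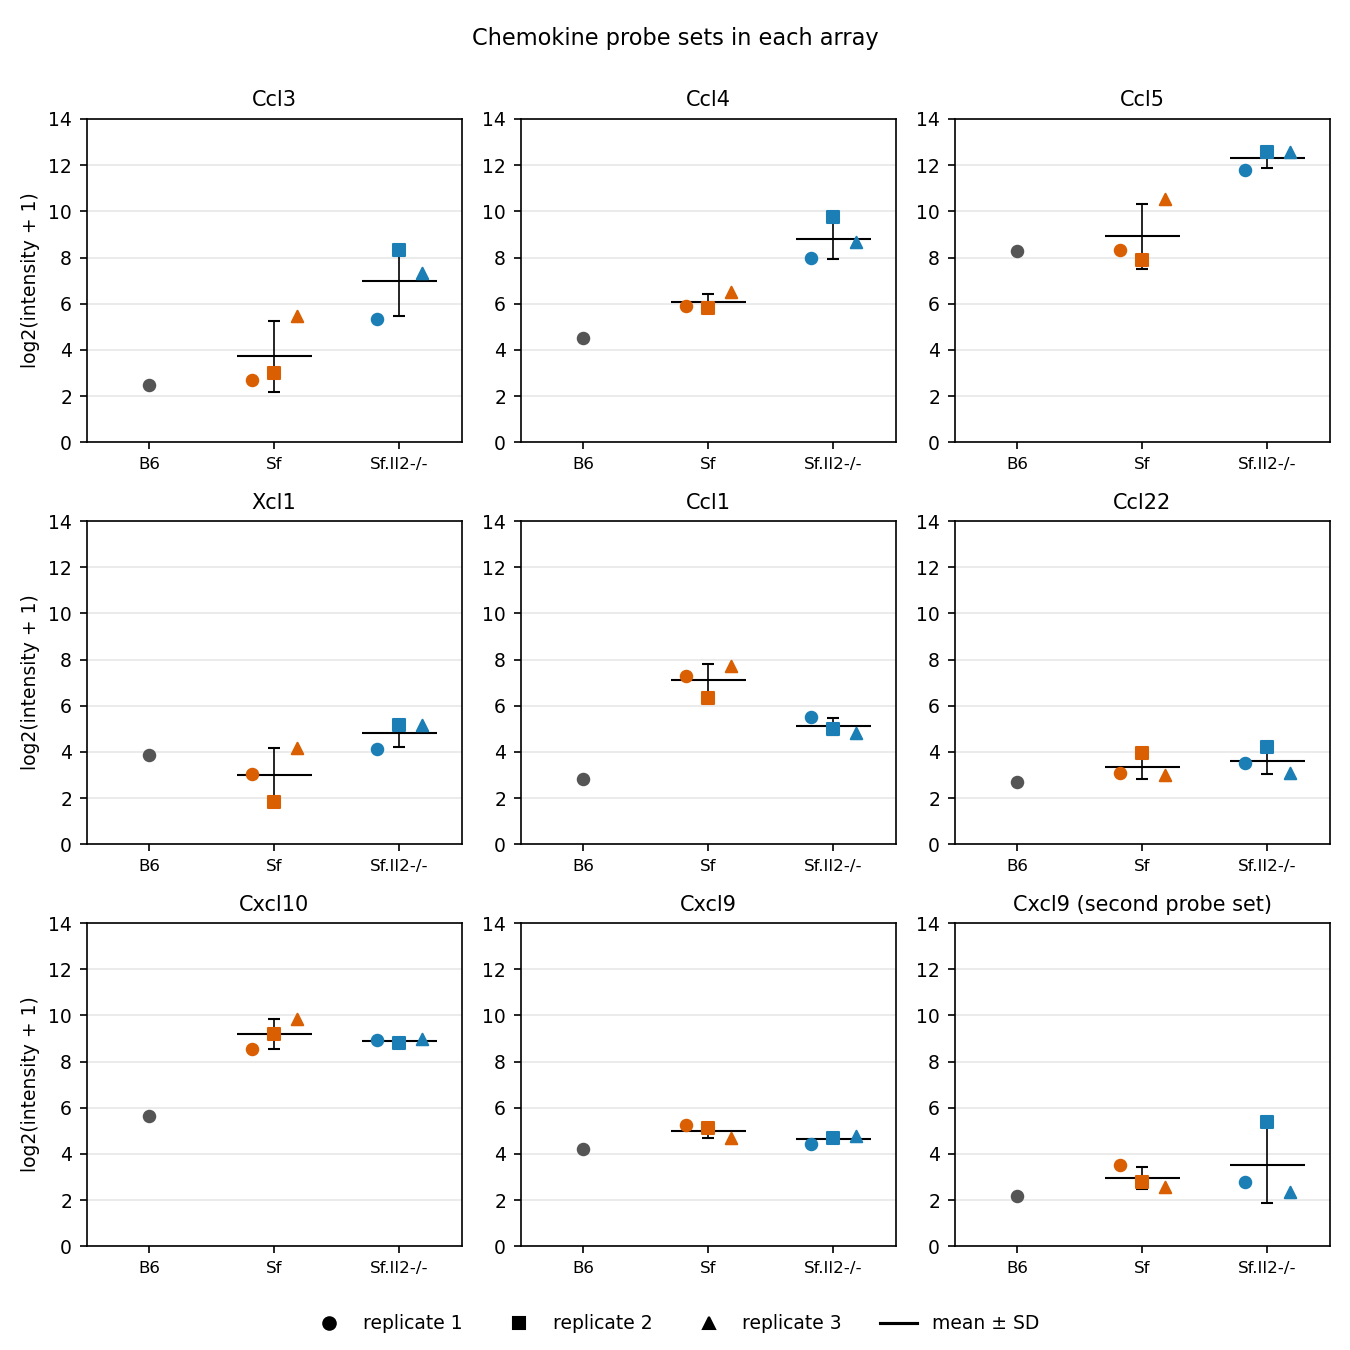
Level of each chemokine probe set, as log2(intensity + 1), in the B6 array and in the Sf and Sf.Il2-/- arrays. Points are single arrays with the shape giving the replicate number, and bars are the mean ± SD of 3 arrays. Ccl4 and Ccl5 lie higher in Sf.Il2-/- than in every Sf array, Ccl1 lies lower, and Cxcl10 lies near 9 in both mutant groups.

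The promoters of 3 members with different patterns are shown first. Ccl1 and Cxcl10 rose in Sf over B6, while Ccl3 read highest in Sf.Il2-/-. RefSeq sequences were matched for 6 of the 8 members, not for Ccl4 or Ccl5. Each line holds the 250 bases before the gene's start, in the gene's direction, from GRCm38.p6. Capitals mark matches to the NF-kappaB consensus, the site of a transcription factor activated by antigen receptor signals, or to the core of the interferon response element, bound by interferon-activated factors, on either strand.
Ccl1, chr11:82179813-82180062, minus strand: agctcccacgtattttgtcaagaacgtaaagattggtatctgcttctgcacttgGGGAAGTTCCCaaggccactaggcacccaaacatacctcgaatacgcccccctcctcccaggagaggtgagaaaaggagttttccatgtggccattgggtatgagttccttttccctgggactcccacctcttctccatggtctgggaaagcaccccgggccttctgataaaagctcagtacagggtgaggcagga
Cxcl10, chr5:92348890-92349139, minus strand: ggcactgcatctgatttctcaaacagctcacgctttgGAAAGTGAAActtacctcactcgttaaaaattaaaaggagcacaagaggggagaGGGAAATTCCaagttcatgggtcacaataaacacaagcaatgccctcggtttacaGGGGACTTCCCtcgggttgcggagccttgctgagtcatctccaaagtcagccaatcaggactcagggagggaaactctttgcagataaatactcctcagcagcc
Ccl3, chr11:83649379-83649628, minus strand: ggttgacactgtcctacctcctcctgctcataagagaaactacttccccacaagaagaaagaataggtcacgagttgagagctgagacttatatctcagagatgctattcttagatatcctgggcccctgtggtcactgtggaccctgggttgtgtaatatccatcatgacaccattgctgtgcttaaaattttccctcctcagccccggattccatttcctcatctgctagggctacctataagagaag
The Ccl1 window held 2 NF-kappaB matches that overlap, the first from base -196 before the start. The Cxcl10 window held 3, from bases -159, -104 and -103, of which the last 2 overlap, and 1 match to the interferon response element from base -213. Of 32851 promoter windows of this length, 7.25% held an NF-kappaB match and 2.98% one to the interferon response element. The windows of Ccl3, Ccl22, Xcl1 and Cxcl9 held neither. GGAAA, the core of NFAT sites, stood 3 times in Ccl1, Cxcl10 and Cxcl9, 2 times in Ccl3, once in Xcl1 and not in Ccl22, and 55.6% of all windows held it. Of these matches, the Cxcl10 one from base -158 lies within capitals, and the Cxcl10 one from base -214 overlaps them. TGANTCA, the AP-1 site, was matched once, in Cxcl10, and 6.75% of all windows held it. TTCNNNGAA, the site of activated STAT factors, was matched in 0 of the 6 windows and in 7.02% of all. These matches are a description of letters in the windows.

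Ccl4, a chemokine of activated T cells, was the member called between the mutant groups. It read 4.53 in B6, 5.91, 5.83 and 6.49 in Sf 1 to 3, and 7.99, 9.77 and 8.67 in Sf.Il2-/- 1 to 3. Every Sf.Il2-/- array lay above every Sf array, and every Sf array above B6. Ccl4 rose in Sf.Il2-/- over Sf by 2.74 ± 0.40 on the log2 scale (± SE throughout, 3 arrays each), which is 6.66-fold (adjusted p = 0.0322). It rose in Sf.Il2-/- over B6 by 4.28 ± 0.57 (n = 3 and 1; adjusted p = 0.00782). B6 was dim here, with 42.9% of probe sets lower, so this size is not exact, and with a pseudocount of 16 it was 3.61. In Sf v B6 its difference of 1.54 ± 0.57 did not pass (adjusted p = 0.156). The call between the mutant groups was lost without Sf 1 (adjusted p = 0.0792), without Sf 2 (adjusted p = 0.0890) and without Sf.Il2-/- 3 (adjusted p = 0.116), with the difference at 2.65, 2.61 and 2.81, and over the alternatives the difference was 2.17 to 3.15. It was also lost without the filter (adjusted p = 0.0911) and over single probe sets (adjusted p = 0.0571). Within the array sets it was 3.01 in the set with Sf 1 and 2.19 in the set with Sf 3.

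Ccl5, a chemokine of memory and cytotoxic T cells that binds Ccr1 and Ccr3, had 1 probe set brighter than 85.0% of all probe sets in B6. It read 8.30 in B6, 8.33, 7.89 and 10.52 in Sf 1 to 3, and 11.81, 12.58 and 12.55 in Sf.Il2-/- 1 to 3. Sf 1 and Sf 2 lay near B6 on either side of it, Sf 3 stood 2.22 above B6, and the Sf.Il2-/- arrays lay above all others. Ccl5 rose in Sf.Il2-/- over B6 by 4.01 ± 0.81 (adjusted p = 0.0359), a 16.1-fold difference. This call was lost without Sf.Il2-/- 1, 2 or 3 (adjusted p = 0.0615, 0.0765 and 0.0808), with differences of 4.26, 3.88 and 3.89, and also without the filter (adjusted p = 0.0780), without the intensity trend (adjusted p = 0.0518) and with the mean of probe sets (adjusted p = 0.0503). Over Sf the difference was 3.40 ± 0.57, which did not pass in the fit without a block (adjusted p = 0.0547) and passed with the replicate number as a block (adjusted p = 0.0141). The labels do not say that arrays of the same number are pairs. Without Sf 3 the difference was 4.20 (adjusted p = 0.000157). Leaving out Sf 3 raised the calls over all genes in each comparison. Here they went from 5 higher and 27 lower to 672 and 200, of 11737 genes tested. In Sf v B6 they became 712 and 2811, and in Sf.Il2-/- v B6 537 and 1004. A call gained without Sf 3, here and below, was thus shared with many genes. Within the array sets the Ccl5 difference from Sf was 4.08 in the set with Sf 1 and 2.03 in the set with Sf 3. In Sf v B6 the difference was 0.61 ± 0.81 (adjusted p = 0.657), and without Sf 3 it was -0.19 (adjusted p = 0.667).

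Ccl3, a ligand of Ccr1 whose gene is the neighbour of Ccl4 on chromosome 11, varied widely among replicates. It read 2.46 in B6, 2.69, 3.00 and 5.48 in Sf 1 to 3, and 5.31, 8.32 and 7.33 in Sf.Il2-/- 1 to 3. Sf 3 stood above Sf.Il2-/- 1, so the mutant groups overlap, while all mutant arrays lay above B6. Those 2 arrays are in different array sets, and within the sets Sf.Il2-/- was higher by 3.97 in the set with Sf 1 (adjusted p = 0.0374) and by 1.84 in the set with Sf 3. In the set with Sf 1 alone, 353 of 11496 tested genes were called higher and 235 lower. In the main fit the Ccl3 difference was 4.53 ± 1.19 in Sf.Il2-/- v B6 (adjusted p = 0.0886), 3.26 ± 0.84 in Sf.Il2-/- v Sf (adjusted p = 0.310) and 1.27 ± 1.19 in Sf v B6 (adjusted p = 0.529). Ccl3 was thus called in none of these comparisons. With the array set as a covariate it passed in Sf.Il2-/- v B6, at 5.58 (adjusted p = 0.0299). Without Sf 3 it passed in the first (adjusted p = 0.0131) and in the second, at 4.14 (adjusted p = 0.0186). Without Sf.Il2-/- 1 it passed in the first at 5.37 (adjusted p = 0.04997), and in Sf v B6 without Sf 3 the difference was 0.39. Without both Sf 1 and Sf.Il2-/- 2 it passed in Sf.Il2-/- v B6, at 3.86. With the replicate block the difference between the mutant groups did not pass (adjusted p = 0.0635). In B6 only 8.83% of probe sets read lower than Ccl3, so sizes against B6 are not exact. Ccl3 passed the filter only through Sf.Il2-/-, so the signs of Sf.Il2-/- against B6 and against Sf were set in advance.

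Xcl1, the chemokine of activated T and NK cells, stayed dim. It read 3.86 in B6, 3.02, 1.84 and 4.17 in Sf 1 to 3, and 4.13, 5.16 and 5.14 in Sf.Il2-/- 1 to 3. Sf 3 lay just above Sf.Il2-/- 1, and the other Sf arrays lay below B6. With a mean of 4.81 in its highest group it was just outside the filter at 5, while Cxcl9, at 5.01 in Sf, was just inside. Tested without the filter, the difference between the mutant groups was 1.80 ± 0.56 (adjusted p = 0.603). For Ccl3, Ccl5 and Xcl1, Sf 3 was the Sf array nearest to the Sf.Il2-/- arrays, and the same array had the highest Il2 value of its group. For Ccl4 it was also the highest of the Sf arrays. Sf 3 was likewise the highest Sf array for Ccl1, at 7.72, and Cxcl10, at 9.86, where it lay farthest from the Sf.Il2-/- arrays. It is the only Sf array of its array set.

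Ccl1, the ligand of Ccr8, went the other way. It read 2.82 in B6, 7.29, 6.34 and 7.72 in Sf 1 to 3, and 5.49, 5.01 and 4.80 in Sf.Il2-/- 1 to 3. The 3 groups did not overlap, with Sf highest and B6 lowest. Ccl1 rose in Sf over B6 by 4.29 ± 0.50 (adjusted p = 0.00495) and in Sf.Il2-/- over B6 by 2.28 ± 0.50 (adjusted p = 0.0487). B6 read near the floor, with 13.2% of probe sets lower, so these sizes are not exact, and over the alternatives they were 2.81 to 4.68 and 1.16 to 2.43. The rise in Sf was called under each alternative run. That in Sf.Il2-/- was lost without Sf 1 (adjusted p = 0.0726) and without Sf.Il2-/- 1, 2 or 3 (adjusted p = 0.127, 0.0927 and 0.0706), with the difference at 2.28, 2.08, 2.32 and 2.43. It was also lost without the filter (adjusted p = 0.101), with a filter at 6 (adjusted p = 0.0549), without the intensity trend (adjusted p = 0.0595), with the mean of probe sets (adjusted p = 0.0565), over single probe sets (adjusted p = 0.0623) and with a pseudocount of 16, at 1.16 (adjusted p = 0.184).

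Between the mutant groups Ccl1 differed by -2.02 ± 0.36 in Sf.Il2-/- v Sf, which did not pass without a block (adjusted p = 0.0665) and passed with the replicate block (adjusted p = 0.0318). It also passed without Sf 2, at -2.41 (adjusted p = 0.0219), and without Sf 3, at -1.72 (adjusted p = 0.0265). Within the array sets the difference was -1.57 in the set with Sf 1 and -2.92 in the set with Sf 3. With the block Ccl4 (adjusted p = 0.0141) and Ccl5 were called higher and Ccl1 lower, so 2 of 6 rose and 1 fell, where 0.131% of all tested genes rose and 0.393% fell. Without any test, 2 of 6 members had Sf.Il2-/- arrays above all Sf arrays and 1 of 6 below, against 8.39% and 3.72% of all tested genes.

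Ccl22, the Ccr4 ligand of dendritic cells and some activated T cells, read low in every array. It was 2.68 in B6, 3.07, 3.94 and 3.00 in Sf 1 to 3, and 3.50, 4.22 and 3.09 in Sf.Il2-/- 1 to 3. The mutant groups overlap, and Sf 2 and Sf.Il2-/- 2 were the highest of their groups. All 6 mutant arrays lay above B6, by as little as 0.32 in Sf 3. Ccl22 was not tested in the main fit, and without the filter its difference was 0.27 ± 0.40 in Sf.Il2-/- v Sf (adjusted p = 0.957).

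Cxcl10, the interferon-induced ligand of Cxcr3, was higher in both mutant groups than in B6. It read 5.63 in B6, 8.56, 9.19 and 9.86 in Sf 1 to 3, and 8.94, 8.81 and 8.97 in Sf.Il2-/- 1 to 3. The Sf.Il2-/- values lay within the range of the Sf values, and every mutant array stood above B6. Cxcl10 rose in Sf over B6 by 3.57 ± 0.43 (adjusted p = 0.00562), an 11.9-fold difference, and in Sf.Il2-/- over B6 by 3.28 ± 0.43 (adjusted p = 0.00767), a 9.68-fold difference. Both rises were called under each alternative run, with differences of 3.23 to 3.93 and 2.94 to 3.63. Between the mutant groups the difference was -0.30 ± 0.30 (adjusted p = 0.897) and without Sf 3 it was 0.030 (adjusted p = 0.933).

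Cxcl9, also a Cxcr3 ligand, lies beside Cxcl10 on chromosome 5 with 1 annotated gene between them, and was called in none of the comparisons. At the brighter probe set it read 4.22 in B6, 5.24, 5.11 and 4.67 in Sf 1 to 3, and 4.43, 4.69 and 4.77 in Sf.Il2-/- 1 to 3. The mutant arrays lay above B6 and overlapped each other. The differences were 0.79 ± 0.41 in Sf v B6 (adjusted p = 0.283), 0.41 ± 0.41 in Sf.Il2-/- v B6 (adjusted p = 0.642) and -0.38 ± 0.29 in Sf.Il2-/- v Sf (adjusted p = 0.861). At the second probe set it read 2.19 in B6, 3.50, 2.79 and 2.57 in Sf 1 to 3, and 2.80, 5.39 and 2.35 in Sf.Il2-/- 1 to 3. Here Sf.Il2-/- 2 stood apart, with Sf 1 next. These are the 2 arrays in which S100a8, a neutrophil transcript, was high, at 7.63 and 6.37 against 2.53 to 4.10 elsewhere. S100a9 was high in the same 2 arrays, and Camp was highest there, at 5.46 and 5.13 against 4.23 to 4.90 elsewhere. Mpo, Ngp and Ltf of the neutrophil list did not mark these arrays. Lyz2, of the monocyte and macrophage list, was highest there as well, at 7.02 and 5.76 against 4.02 to 5.05 elsewhere. Which cells these transcripts came from was not tested, nor was their part in the Cxcl9 value.

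**Figure D2:**
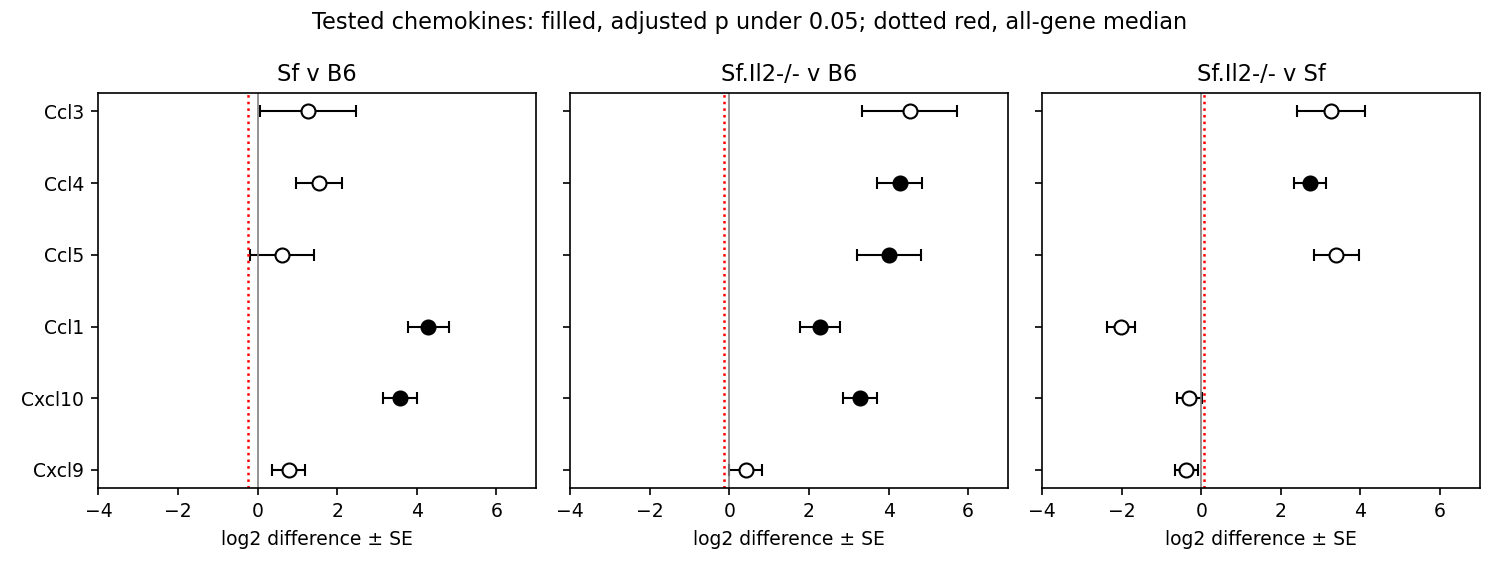
Log2 difference ± SE of the 6 tested chemokines in each comparison, from 1 limma fit over 7 arrays. Filled points have an adjusted p under 0.05, and the dotted line is the median difference of all tested genes (-0.25, -0.14 and 0.08). Ccl1 and Cxcl10 are filled in both B6 comparisons, Ccl5 in Sf.Il2-/- v B6, and Ccl4 in both comparisons that involve Sf.Il2-/-.

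The direction of each tested member against B6 was the same in both mutant groups, and the comparisons share the B6 array. In Sf.Il2-/-, 6 of 6 tested members had all 3 arrays above B6, where 24.7% of all tested genes did. In Sf, 5 of 6 did, with Ccl5 on both sides, where 19.6% of all tested genes did. None of the 6 lay below B6 in all 3 arrays of a mutant group, where 46.9% of all tested genes did in Sf and 44.5% in Sf.Il2-/-. Ccl1, Ccl3, Ccl4 and Cxcl9 read under 5 in B6 and passed the filter only through a mutant group. The filter thus set in advance that at least 1 mutant group mean of each lay above B6. Between the mutant groups it also set the sign for Ccl3, which passed only through Sf.Il2-/-, and for Cxcl9, which passed only through Sf. All tested genes include many bright in B6 and free to fall, so no conclusion is drawn from these counts. The spread among replicates was uneven. The SD over the Sf arrays was 1.53 for Ccl3, 1.41 for Ccl5, 1.16 for Xcl1 and 0.36 for Ccl4, and over the Sf.Il2-/- arrays it was 1.53 for Ccl3, 0.90 for Ccl4, 0.44 for Ccl5 and 0.08 for Cxcl10.

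Among 29 other chemokine ligands the array named 27, and 13 of these stayed under 5 in every array. Of the 8 that were tested, 0 passed in each of the 3 comparisons. Cxcl3, a chemokine for neutrophils, had the lowest p in both B6 comparisons, with differences of 2.98 in Sf (adjusted p = 0.0940) and 2.07 in Sf.Il2-/- (adjusted p = 0.232). Cxcl3 read 2.76 in B6, 5.81, 5.18 and 6.25 in Sf 1 to 3, and 4.48, 6.32 and 3.69 in Sf.Il2-/- 1 to 3. Cxcl2, another such chemokine, had the lowest p between the mutant groups, with a difference of -1.91 (adjusted p = 0.0966). It read 5.71, 6.16 and 5.17 in the Sf arrays and 4.10, 3.32 and 3.89 in the Sf.Il2-/- arrays. Cxcl2 and Cxcl3 passed the filter only through Sf, so the signs of Sf against B6 and against Sf.Il2-/- were set in advance. Without Sf 3 Cxcl3 passed in Sf v B6 at 2.73 (adjusted p = 0.0417), without Sf.Il2-/- 2 at 2.98 (adjusted p = 0.0298), and Cxcl2 passed between the mutant groups without Sf 3 at -2.17 (adjusted p = 0.0153). Cxcl11, the remaining Cxcr3 ligand, was too dim to be tested, at 1.98 in B6, 3.68, 4.62 and 5.85 in the Sf arrays and 4.28, 3.87 and 4.38 in the Sf.Il2-/- arrays, so all mutant arrays were above B6. The median difference of the 8 was 0.75 in Sf v B6, 0.43 in Sf.Il2-/- v B6 and -0.25 in Sf.Il2-/- v Sf.

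Of 8 receptors that the members bind, 7 were named by the array and 4 were tested, Ccr1, Ccr4, Ccr8 and Cxcr3. In Sf v B6, 1 rose (Ccr1) and 0 fell; in Sf.Il2-/- v B6 0 passed; in Sf.Il2-/- v Sf 1 fell (Ccr1) and 0 rose. Ccr1, the receptor of Ccl3 and Ccl5, read 3.78 in B6, 7.26, 6.59 and 6.97 in Sf 1 to 3, and 3.92, 4.23 and 3.92 in Sf.Il2-/- 1 to 3. It rose in Sf by 3.16 ± 0.37 (adjusted p = 0.00503) and fell by 2.92 ± 0.26 between the mutant groups (adjusted p = 0.00212). Its values in B6 and Sf.Il2-/- were dim, so these sizes are not exact, and with a pseudocount of 16 they were 2.26 and -2.14. Ccr1 passed the filter only through Sf, which set the sign of both differences in advance. Where Ccl3 and Ccl5 had their highest values, in Sf.Il2-/-, Ccr1 read near its B6 level. Ccr8, the receptor of Ccl1, read 6.17 in B6. It was 7.19, 7.35 and 8.29 in the Sf arrays and 5.95, 5.56 and 6.50 in the Sf.Il2-/- arrays, so the mutant groups did not overlap and Sf was the higher, as for Ccl1. The difference of -1.61 between them did not pass without a block (adjusted p = 0.146), and passed with the replicate block (adjusted p = 0.00794) and without Sf 3, at -1.27 (adjusted p = 0.0308). Ccr4, the receptor of Ccl22, differed by 1.56 in Sf.Il2-/- v B6 (adjusted p = 0.0505), and passed there without Sf 3 (adjusted p = 0.0136). Cxcr3, the receptor of Cxcl9 and Cxcl10, was 8.62 in B6, 9.14, 9.32 and 10.82 in the Sf arrays, and 10.28, 11.41 and 10.87 in the Sf.Il2-/- arrays, with a difference from B6 of 2.24 in Sf.Il2-/- (adjusted p = 0.0988), which passed after quantile normalization, at 2.43 (adjusted p = 0.0398). The median difference of the 4 receptors was 1.29, 0.90 and -0.48 in the same 3 comparisons.

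Of 13 interferon gamma pathway genes 11 were tested. Jak1, a kinase of the interferon receptors, fell by 1.27 in Sf v B6 (adjusted p = 0.0313), where 0 rose, and in the other comparisons 0 passed. This Jak1 call was lost without Sf 1 (adjusted p = 0.0886) and without Sf.Il2-/- 1, 2 or 3 (adjusted p = 0.0519, 0.0571 and 0.0614), without the filter (adjusted p = 0.0700), without the intensity trend (adjusted p = 0.0739) and with the mean of probe sets (adjusted p = 0.107). After quantile normalization the difference was -0.70 (adjusted p = 0.0499). Ifng, the gene of interferon gamma, which induces Cxcl9 and Cxcl10, was 6.18 in B6, 8.16, 9.01 and 8.98 in the Sf arrays, and 7.84, 9.58 and 9.23 in the Sf.Il2-/- arrays. All mutant arrays were above B6 and the mutant groups overlapped. Its differences of 2.54 and 2.70 from B6 did not pass (adjusted p = 0.0612 and 0.0505), and passed without Sf.Il2-/- 1 at 2.54 and 3.22 (adjusted p = 0.0243 and 0.0153) and without Sf 3 at 2.40 and 2.70 (adjusted p = 0.0208 and 0.0183). After quantile normalization both passed (adjusted p = 0.0400 and 0.0340). In Sf.Il2-/- it also passed without Sf 1 (adjusted p = 0.0457) and without Sf 2 (adjusted p = 0.0491). Between the mutant groups Ifng differed by 0.16 (adjusted p = 0.966), and Jak1, with the lowest p of the list, by 0.61 (adjusted p = 0.375), which passed without Sf 3, at 0.75 (adjusted p = 0.0258), and was 0.18 after quantile normalization (adjusted p = 0.724). The list median was 0.24, 0.44 and 0.16 in the 3 comparisons.

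Of 13 transcription factors written down as regulators of these genes in T cells, 12 were tested. None passed in Sf v B6, where Batf differed by 1.77 (adjusted p = 0.0557), and passed without Sf 2 at 2.01 (adjusted p = 0.0284) and without Sf 3 at 1.41 (adjusted p = 0.00347), and after quantile normalization at 2.24 (adjusted p = 0.00272). In Sf.Il2-/- v B6, 2 rose and 0 fell. Batf, an AP-1 factor of effector T cells, was 8.02 in B6, 9.55, 9.32 and 10.50 in the Sf arrays, and 10.57, 10.59 and 10.69 in the Sf.Il2-/- arrays, a rise of 2.60 (adjusted p = 0.0140). Eomes, a T-box factor of memory and cytotoxic lymphocytes, was 6.94 in B6, 7.95, 7.29 and 8.46 in the Sf arrays, and 8.82, 9.66 and 9.90 in the Sf.Il2-/- arrays, a rise of 2.52 (adjusted p = 0.0346). The Eomes call was lost without Sf.Il2-/- 2 (adjusted p = 0.0804) and without Sf.Il2-/- 3 (adjusted p = 0.0746). In Sf.Il2-/- v Sf 0 passed, with Eomes at 1.56 (adjusted p = 0.197), which passed without Sf 3 at 1.84 (adjusted p = 0.0198). The list median was 0.19, 0.12 and 0.22 in the 3 comparisons.

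**Figure D3:**
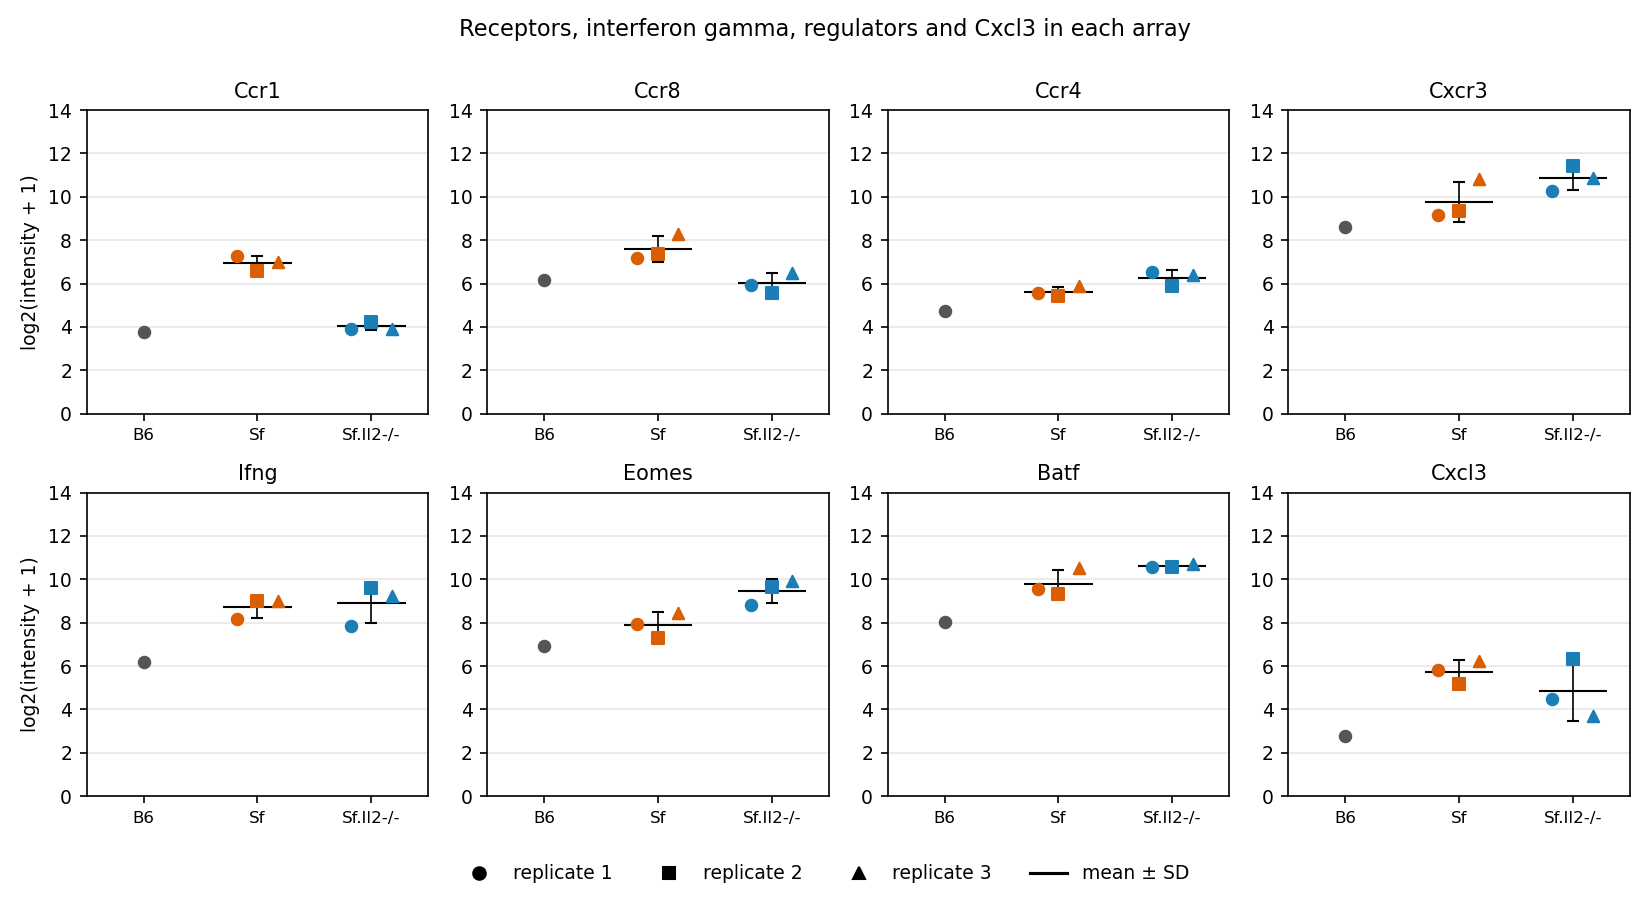
Level, as log2(intensity + 1), of receptors of the chemokines (Ccr1, Ccr8, Ccr4, Cxcr3), of Ifng, of the factors Eomes and Batf, and of Cxcl3 in each array. Points are single arrays with the shape giving the replicate number, and bars are the mean ± SD of 3 arrays. Ccr1 is high in Sf alone, from 6.59 to 7.26, while Eomes and Batf lie highest in Sf.Il2-/-.

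For each tested member the pair of other tested genes with the highest Pearson correlation over the 7 arrays was taken as most alike in pattern. The arrays share groups and array sets, so the correlations are a description. For Ccl1 these were Pif1, a DNA helicase (r = 0.988), and Ptpn3, a tyrosine phosphatase (r = 0.988). For Ccl3 they were Dpy19l3 (r = 0.996) and Unc119b (r = 0.992), and for Ccl4 Snx10, a sorting nexin (r = 0.985), and Wdr95 (r = 0.980). For Ccl5 they were Ddt (r = 0.986) and Psmd10 (r = 0.985), and for Cxcl9 Fbxo41 (r = 0.984) and Spock2 (r = 0.947). For Cxcl10 they were Mlkl, the effector of necroptosis (r = 0.998), and Bhlhe40, a transcription factor of effector T cells (r = 0.996). Bhlhe40 was 6.04 in B6, 9.89, 10.40 and 11.06 in the Sf arrays, and 10.07, 10.09 and 10.34 in the Sf.Il2-/- arrays. The matches differ in size as well as shape, since Ddt moved from 8.28 in B6 to at most 9.20.

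Markers of the sorted cells were bright, with Cd3e at 9.47 to 10.69 and Cd4 at 9.44 to 11.27 over all arrays. The summed intensity of 8 CD4 T cell markers was 21036 in B6, 10846 to 14868 in Sf and 17604 to 18885 in Sf.Il2-/-. Several cells that could also supply these chemokines were checked. Of 8 NK cell markers 6 were named by the array, and their sum was 197.7 in B6, 286.4 to 472.7 in Sf and 519.7 to 1029.6 in Sf.Il2-/-. Eomes, which T cells also express, carries this rise, and without it the sum was 76.0 in B6, 121.1 to 130.5 in Sf and 68.8 to 90.1 in Sf.Il2-/-. The defining NK receptor gene Ncr1 read 2.14 to 3.12 in all arrays. Of the 2 NK markers tested Eomes rose as given above, and Klrk1, a receptor that activated T cells share, fell by 1.88 in Sf.Il2-/- v Sf (adjusted p = 0.0277). Klrk1 passed the filter only through Sf, which set this sign in advance. No tested gene of the other marker lists passed in any of the 3 comparisons. The sum of the CD8 T cell markers Cd8a and Cd8b1 was 312.1 in B6, 146.3 to 201.0 in Sf and 151.2 to 200.6 in Sf.Il2-/-.

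Of 8 dendritic cell markers 7 were named, with sums of 123.8 in B6, 129.8 to 182.5 in Sf and 133.2 to 186.4 in Sf.Il2-/-, and Itgax at 4.72 to 5.96 and Batf3 at 4.70 to 5.36. The sum of 8 monocyte and macrophage markers was 879.8 in B6, 582.6 to 931.5 in Sf and 591.9 to 1127.6 in Sf.Il2-/-, with Csf1r at 8.36 to 9.49 carrying most of it and Itgam at 1.02 to 4.19. Without Csf1r the sum was 227.4 in B6, 188.3 to 316.6 in Sf and 264.7 to 416.1 in Sf.Il2-/-. Cd68, a lysosomal protein gene of this list, read 5.03 in B6, 4.73, 4.77 and 5.32 in the Sf arrays and 6.20, 6.33 and 6.74 in the Sf.Il2-/- arrays. It was thus higher in every Sf.Il2-/- array, as Ccl4 and Ccl5 were, with a difference from Sf of 1.49 (adjusted p = 0.0655), and its part in their differences was not tested. Of 9 neutrophil markers 7 were named, with sums of 264.0 in B6, 217.0 to 440.8 in Sf and 245.3 to 638.5 in Sf.Il2-/-, the highest in Sf 1 and Sf.Il2-/- 2. Of 6 B cell markers 5 were named, with sums of 3057 in B6, 960.7 to 1760 in Sf and 1906 to 2158 in Sf.Il2-/-, mostly from Ighm, and 83.3 to 154.6 over all arrays without it, with Cd79a at 4.25 to 4.99. Of 7 stromal markers 6 were named, with sums of 565.5 in B6, 303.2 to 407.2 in Sf and 357.0 to 410.8 in Sf.Il2-/-. Without Sf 1 and Sf.Il2-/- 2, the arrays with neutrophil transcripts, the difference between the mutant groups was 2.17 for Ccl4 (adjusted p = 0.000711), 2.98 for Ccl5 (adjusted p = 0.000130) and -1.88 for Ccl1 (adjusted p = 0.0492). That of Ccl3 went from 3.26 to 2.08 and did not pass (adjusted p = 0.287). Against B6 the differences without them were 3.89 for Cxcl10 in Sf (adjusted p = 3.36e-06) and 4.21 for Ccl1 in Sf (adjusted p = 2.74e-06). With 2 arrays a group, these p-values lean on the spread pooled over all genes. The part of other cells in the remaining differences was not tested.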

How the data were processed

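RNA of sorted CD4+ T cells was hybridised to 7 Affymetrix mouse arrays (1 B6, 3 Sf and 3 Sf.Il2-/-). The authors deposited 1 linear intensity per probe set and array, and its scaling between arrays is not stated. The submitters' processing notes name GCRMA and GCOS, without versions, roles or order, and other steps are not given in the sources used here. The labels call the arrays biological replicates. Identical values were shared by at most 0.535% of probe sets of any pair of arrays. The number of arrays limits the precision.

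The array annotation gives 1 gene to 34945 of 45037 probe sets, several to 932 and no gene to 9160. Current symbols were found in the RefSeq table of GRCm38.p6 for 34741. A gene is represented by its brightest probe set on average, as log2(intensity + 1), where a fold is understated for dim genes. It was tested where the highest group mean was at least 5. The 3 group means were fitted together in limma 3.58.1 (R 4.3.3; lmFit and eBayes, with the variance allowed to follow intensity), which left 4 residual and, after moderation, 9.57 degrees of freedom. P-values were adjusted by Benjamini-Hochberg over 11460 genes. The fit was tested on simulated data. Plots used matplotlib 3.10.9 (Python 3.11.15).

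Same-numbered Sf and Sf.Il2-/- arrays deviated together from their group means (r = 0.261, 0.180 and 0.481 over probe sets reaching 5), so the titles' numbers were tried as a replicate block. Sf 2 correlated better with Sf.Il2-/- 1 (r = 0.328). The array sets were told apart by the largest gap in the upper quartiles. The alternatives were other filters, scalings, pseudocounts, variance models and probe set rules, the array set, the block, and fewer arrays. Named genes were the members, the label checks Foxp3 and Il2, up to 4 called genes per list and comparison or else that with the lowest p, the pair of genes most correlated with each tested member, and markers that define a cell type. Ccr8, Cxcr3, Cxcl11, Klrk1, Cd68, S100a9, Camp, Mpo, Ngp, Ltf, Lyz2 and, in Sf v B6, Ifng stand outside this rule. They were chosen after their values were seen. The members and lists were chosen with earlier results of these data known.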

Additional observations from a re-analysis of the deposited data

How the results depend on the processing

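Of 303 recomputed differences of single members, 256 kept their direction and side of the threshold, or moved by less than the replicate SD where there was no test. Other filters, the variance model, single probe sets and the block leave the difference itself unchanged. So does leaving out an array of the group not compared. There only the call could change, so the 256 are no measure of how far the sizes held. A call was lost in 21 and gained in 18, 6 values without a test moved by more, and 2 differences with a test turned in sign, both without Sf 3. One of the 6, Cxcl9 in Sf.Il2-/- v Sf, also turned in sign, from -0.38 to 0.10 within the set with Sf 3. Leaving out single arrays, Ccl5 in Sf v B6 ranged from -0.19 to 1.12 and Cxcl10 in Sf.Il2-/- v Sf from -0.62 to 0.030, none of them called. The count of called members in Sf v B6 was 2 under every alternative run. In Sf.Il2-/- v B6 the count of 4 became 2 without the filter, 2 without the intensity trend and 2 with the mean of probe sets. It was 3 with a filter at 6, 3 with a pseudocount of 16, 3 over single probe sets, 5 with the array set as a covariate and 5 without the 2 arrays with neutrophil transcripts, and leaving out single arrays gave 2 to 5. In Sf.Il2-/- v Sf the count of 1 became 0 without the filter and 0 over single probe sets. There it was 2 with a filter at 6, 2 with median centring and 2 with the array set as a covariate. It was 3 with the replicate block, 3 without the 2 arrays with neutrophil transcripts and 4 within the set with Sf 1, and leaving out single arrays gave 0 to 4. The replicate block was not used for the B6 comparisons because B6 has 1 array.

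Calls over all genes, higher then lower, were 150 and 133 for Sf v B6, then 171 and 137 for Sf.Il2-/- v B6, and 5 and 27 between the mutant groups. Without the filter they were 97 and 64, 84 and 54, and 0 and 11. With the array set as a covariate they were 394 and 211, 464 and 257, and 17 and 57. The mean of probe sets gave 112 and 76 in Sf v B6. Between the mutant groups the block gave 15 and 45 and the set with Sf 1 alone 353 and 235. Without Sf 3 the calls were 712 and 2811, 537 and 1004, and 672 and 200, and without Sf 1 they were 84 and 32, 112 and 71, and 0 and 12. Without Sf.Il2-/- 1, 2 or 3 they were 89 and 40, 106 and 44, and 84 and 100 in Sf.Il2-/- v B6. Between the mutant groups the loss of Sf 2 gave 1 and 15, that of Sf.Il2-/- 1 gave 2 and 11, and that of Sf.Il2-/- 3 gave 0 and 8. The cause of these changes was not tested. Cxcl9 fell below the filter under some settings and then has no value. Values within the set with Sf 3 for the B6 comparisons were added after seeing the data. The low values of Ccl1, Ccl3, Ccl22 and Xcl1 lie near the floor of the arrays, which limits their sizes.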
